A study of Mus musculus with 6 samples.

Results

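The collagen chains were the 40 mouse genes that the array's own gene names give in the form Col, digits, a, digits, such as Col6a1, and they were taken from 27671 named genes. They were read by 78 of the 41174 probes, and each chain was represented by its brightest probe over the 6 arrays. The arrays compared 3 cultures of 4T1.2 cells carrying Irf7 with 3 cultures carrying the empty base vector (BV). 4T1.2 is a mouse mammary tumour line of BALB/c background that forms bone metastases, and Irf7 encodes a transcription factor that switches on type I interferon genes. Both populations had received the pMSCV retroviral vector from HEK-293 packaging cells, had been selected in puromycin, and were grown in α-MEM with 5% FCS. In both, single-cell clones were raised and several of them were mixed, so each group is 1 pool of clones. The series' title links the loss of Irf7 to bone metastasis, and the comparison asks which transcripts differ when Irf7 expression is enforced.

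Collagens are the main structural proteins of the extracellular matrix. Each molecule is a triple helix of 3 chains, in which glycine returns at the start of every Gly-X-Y unit, and the chains are folded by dedicated hydroxylases and chaperones in the endoplasmic reticulum before they are secreted. Fibrillar collagens give tissues their tensile strength, network collagens such as type IV form basement membranes, beaded filaments of type VI link cells to the matrix, and the fibril-associated chains decorate the surface of fibrils. In mammary tumours most fibrillar collagen is made by stromal fibroblasts, while the carcinoma cells contribute basement membrane chains.

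The repeat that defines the family can be read in the probes themselves. A run of at least 5 glycine codons (GGN), 9 bases apart in an open reading frame, was found in 3 of the 41174 probe sequences (0.00729%), and all 3 were collagen probes (3 of 78, 3.85%). They are shown because they read the helical part of the message, and in Col11a2 and Col5a1 they gave another result than the brightest probe of the same gene. Glycine codons of the repeat are in capitals.
Col11a2, mm7 chr17:32131401-32131567, plus strand, 6 glycine codons: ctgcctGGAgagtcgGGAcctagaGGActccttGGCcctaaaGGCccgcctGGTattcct
Col5a1, mm7 chr2:27994034-27996457, plus strand, 6 glycine codons: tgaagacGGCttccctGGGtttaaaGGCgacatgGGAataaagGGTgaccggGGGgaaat
Col5a3, mm7 chr9:20655471-20656200, minus strand, 7 glycine codons: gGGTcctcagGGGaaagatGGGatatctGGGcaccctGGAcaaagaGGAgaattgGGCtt
Each of these 60-base probes spans 167, 2424 and 730 bases of the genome respectively, so their bases lie in more than 1 genomic block; the helical part of collagen genes is known to be spread over many short exons.

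A signal is the background-subtracted brightness of a probe in the scanner's units, well above background is the scanner software's own call, and a scaled level is log2 of the signal minus the array's 75th percentile. Log2 changes are IRF7 minus base vector on that scale. Each array held 43379 spots of mouse probes, of which 54.3 to 56.8% were well above background in the base-vector cultures and 56.8 to 59.7% in the IRF7 cultures. Irf7 itself (mm7 chr7:137682028-137682378) rose from signals of 246, 195 and 210 to 4486, 4963 and 5012, a log2 change of 4.28 (SE 0.0485, limma adjusted p = 3.08e-07). Base-vector replicate 1 shared slide 1 with all 3 IRF7 arrays, while the other two base-vector arrays shared slide 2, so only slide 1 holds both groups. Of 7 epithelial markers, 5 were well above background on every array (Epcam, Krt8, Krt18, Cdh1 and Cldn3), and Krt19 and Cldn4 were so on no array. Epcam (1.2, SE 0.171, limma adjusted p = 0.0017) and Krt8 (0.15) were higher, Cldn3 (-0.29) was lower, and Krt18 (-0.06) and Cdh1 (0.04) did not pass. Krt8 gave 0.11 with median centring (limma adjusted p = 0.406), and Cldn3 gave -0.09 without scaling (limma adjusted p = 0.494). The summed unscaled signal of the epithelial markers, mostly of Krt18 and Krt8, was 387697 to 448607 in base-vector cells and 464424 to 514088 in IRF7 cells. Of 10 fibroblast markers, 6 were tested: 1 was higher (Fap), 3 were lower, and Acta2 (0.08) and S100a4 (0.01) did not pass. Fap read 20.7, 68.9 and 15.9 in base-vector cells, above background on 1 array, and 259, 317 and 274 in IRF7 cells. It entered the test only through the IRF7 arrays. Its fitted log2 change of 3.12 (SE 0.577, limma adjusted p = 0.00482) rests in part on base-vector signals not well above background. The 3 lower ones were Pdgfra (-1.21, SE 0.0297, limma adjusted p = 3.12e-06), Pdgfrb (at least 2.84-fold) and Dcn (at least 3.1-fold). Thy1, Lum and Tcf21 were above background on no array, and the summed fibroblast signal was 477137 to 544564 in base-vector cells and 577192 to 588725 in IRF7 cells. These sums are unscaled, and S100a4 alone made up 451967 to 517227 and 551307 to 560278 of them. Of 4 endothelial markers only Cdh5 was tested (1.06, higher), with Pecam1 and Kdr above background on no array and sums of 155 to 173 and 309 to 340. The 3 tested leukocyte markers of 6 did not pass, with Cd3e at 0.13 and Cd68 at 0.01 (sums 741 to 912 and 887 to 1110; Itgam on no array). Of 3 tested bone and cartilage markers of 4, 1 passed (Acan, 0.51, higher; sums 197 to 232 and 249 to 298; Sp7 on no array). On slide 1 alone the log2 change of Acan was 0.14. The part of these markers in the collagen values was not tested.

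Of the 40 chains, 16 were well above background on all 6 arrays (40.0%, against 51.2% of all genes), 11 on some arrays and 13 on none (32.5%, against 36.7% of all genes). In 2 of these 13, Col5a3 and Col13a1, another probe was above background on 1 array. The chains that were read on all 6 arrays included 5 of the 6 type IV chains and 4 of the 9 fibril-associated chains, but 3 of the 11 fibrillar chains. The chains of the major interstitial fibrils were at or near background: Col1a1, the main chain of type I collagen, was above background on no array, Col3a1 on 1 array and Col1a2, the partner of Col1a1, on 2 base-vector and all 3 IRF7 arrays.

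**Figure D1:**
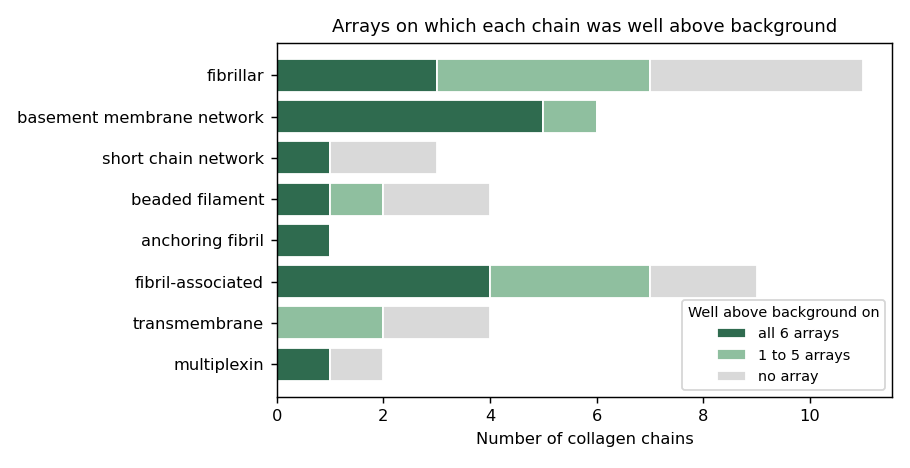
Number of collagen chains (horizontal axis) in each structural class (vertical axis), split by the number of arrays on which the brightest probe was well above background. All 6 arrays read 5 of 6 basement membrane chains, whereas 4 of 11 fibrillar chains were read on no array.

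Among the 21 chains with a probe above background on at least 3 arrays, 9 were higher and 5 were lower in the IRF7 cells at a limma adjusted p under 0.05, and 7 did not pass. These 14 calls compare with 61.2% of all 15414 genes tested (32.1% higher, 29.0% lower), so the share of collagen chains that changed (66.7%) was near that of the array as a whole. The median log2 change of the 21 chains was 0.23, against 0.03 for all genes. Some of the rising chains entered the test only because they were above background in the IRF7 cells; among the 16 chains read on every array, 5 were higher, 5 were lower and 6 did not pass, with a median of 0.04. The 2 groups did not overlap for 15 of the 21 chains (68.0% of all genes). A change of at least 2-fold was fitted for 4 chains (5.85% of all genes): Col6a1 fell (2.54% of all genes fell this far), and Col9a3, Col14a1 and Col17a1 rose (3.31% of all genes) from signals at or near background. In cultures of mixed clones, a smaller share of cells making a chain and less RNA per cell cannot be told apart.

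Slide and scaling bear on these counts. With slide as a fixed block 12 chains passed, and on slide 1 alone, where 1 base-vector array is assumed to vary like the 3 IRF7 arrays, 11 passed. Without any scaling between arrays, which moves the median of all genes to 0.23, the calls split into 11 higher and 1 lower, and 79.1% of all calls were then on the higher side, against 52.5% with scaling.

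**Figure D2:**
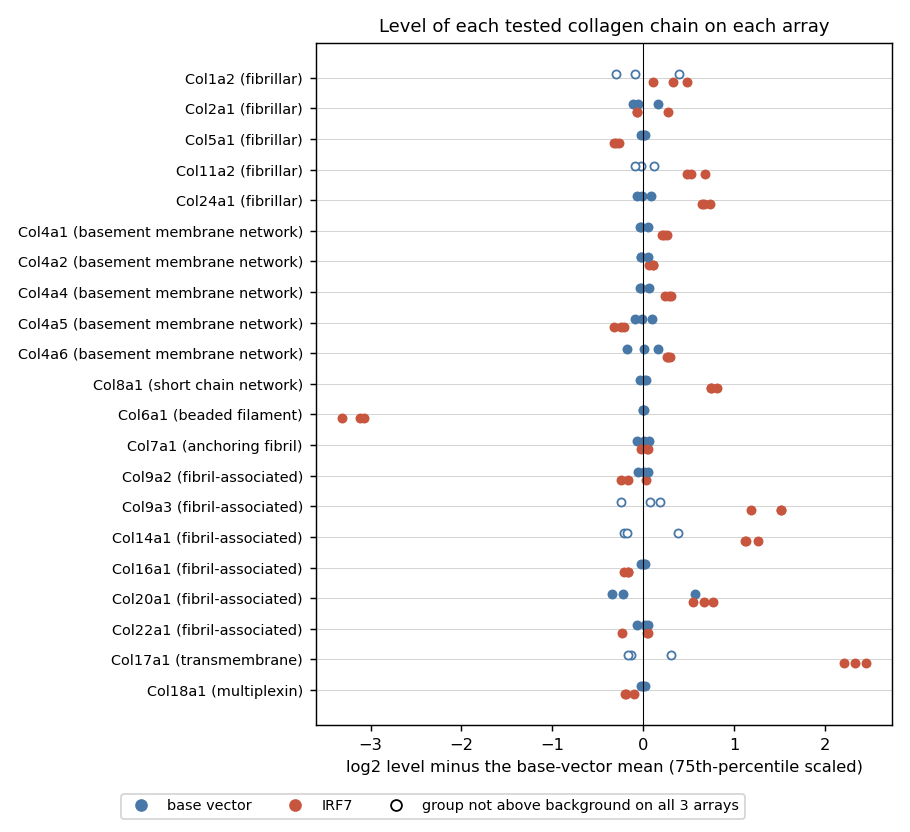
Level of each of the 21 tested chains on each array, as log2 signal relative to the array's 75th percentile minus the base-vector mean (horizontal axis, log2 units); points are single arrays and open points mark a group that was not above background on all 3 arrays. Col6a1 lies about 3 units to the left in all 3 IRF7 arrays, Col17a1 and Col9a3 lie to the right with open base-vector points, and most other chains lie within 1 unit of the base-vector mean.

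Type VI collagen held the widest drop among the 21 tested chains. Col6a1 encodes the alpha1 chain, which joins the alpha2 chain and the alpha3 chain or a related chain in each beaded-filament molecule. Its probe (mm7 chr10:76364050-76364109, minus strand) read 679, 607 and 631 in the base-vector cultures and 69.0, 85.4 and 92.1 in the IRF7 cultures. The base-vector arrays were almost level with each other and the IRF7 arrays were all far below them. Scaled log2 levels averaged -0.85 ± 0.02 (SD, n = 3) and -4.02 ± 0.13 (SD, n = 3), an 8.97-fold lower level (log2 change -3.17, SE 0.0677, limma adjusted p = 2e-06). The change was -3.15 on slide 1 alone and -2.39 with the normexp background correction. The array carried 1 probe for Col6a1, so a second reading of the gene was not at hand.

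The other beaded-filament chains were close to background. Col6a2, the neighbouring gene and obligate partner, read 40.6, 13.8 and 21.9 in base-vector cells and 35.2, 39.7 and 46.0 in IRF7 cells, and was above background only on 2 IRF7 arrays. Col6a3 stayed between 7.46 and 10.7 and Col28a1 was likewise above background on no array, so neither could be compared. Genes around Col6a1 did not share its drop as a group: of 54 tested genes within 2 Mb, 22 were higher and 17 lower. Their median log2 change was 0.10, with a range of -1.14 to 0.88. Over all genes, 32.1% were higher and 29.0% lower.

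The 250 bases upstream of Col6a1 are given because no other chain changed as much, and those of Col8a1 are given with that chain, whose probes rose in both readings. Both come from RefSeq, build GRCm38.p6, and are written in the direction of transcription. They were searched on both strands for the GC box GGGCGG, an interferon response core (GAAA, 2 unspecified bases, GAAA) and TATAAA, and matches would stand in capitals; overlapping matches were counted once each.
Col6a1, GRCm38.p6 chr10:76726045-76726294, minus strand: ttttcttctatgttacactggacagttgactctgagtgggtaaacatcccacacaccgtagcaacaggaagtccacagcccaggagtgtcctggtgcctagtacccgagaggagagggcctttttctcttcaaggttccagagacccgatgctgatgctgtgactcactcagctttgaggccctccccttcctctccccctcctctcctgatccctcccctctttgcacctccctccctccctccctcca
None of the 3 motifs occurred in the Col6a1 window. Over the 35 windows of 300 bases (250 before and 50 after the start) found for 32 of the 40 chains, the GC box was present in 20 (57.1%, against 35.7% of 32851 mouse promoters), TATAAA in 5 (14.3%, against 13.6%) and the interferon response core in 0 (against 3.44%). A match or its absence describes these letters in these windows only.

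Among the short-chain network collagens, which form hexagonal lattices in vessel walls and in the Descemet membrane of the eye, Col8a1 rose. Its brightest probe (mm7 chr16:57488371-57488430, minus strand) read 21833, 18714 and 20167 in base-vector cells and 37922, 39252 and 40956 in IRF7 cells. Every IRF7 array was well above every base-vector array. The scaled means were 4.13 ± 0.04 (SD, n = 3) and 4.90 ± 0.03 (SD, n = 3), a 1.70-fold higher level (log2 change 0.76, SE 0.0346, limma adjusted p = 2.14e-05). A second probe (mm7 chr16:57485809-57485868) gave the same size of change, 0.80 (SE 0.0512, limma adjusted p = 8.42e-05), and the value on slide 1 alone was 0.75. Of 32 tested genes within 2 Mb, 15 were higher and 5 lower, with a median of 0.20 (32.1% of all genes were higher and 29.0% lower). Col8a2, the partner chain, and Col10a1, the chain of growth plate cartilage, were above background on no array.
Col8a1, GRCm38.p6 chr16:57754738-57754987, minus strand: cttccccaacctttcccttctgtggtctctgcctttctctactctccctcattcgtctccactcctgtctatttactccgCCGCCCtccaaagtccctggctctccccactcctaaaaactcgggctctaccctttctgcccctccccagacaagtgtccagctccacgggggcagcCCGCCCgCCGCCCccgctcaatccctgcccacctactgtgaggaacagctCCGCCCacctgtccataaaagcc
The 4 capital stretches are GC boxes read on the opposite strand.

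The type IV chains, the scaffold of basement membranes, moved by small amounts and in both directions. Of 5 tested chains, 3 were higher, 1 was lower and 1 did not pass (80.0% called, against 61.2% of all genes). Col4a1 and Col4a2 encode the chains of the ubiquitous type IV molecule and are transcribed in opposite directions from a shared promoter; their 300-base RefSeq windows share 78 bases (GRCm38.p6 chr8:11312777-11312854). The brightest Col4a1 probe (mm7 chr8:11167020-11167079) read 19189, 17200 and 18672 in base-vector cells and 23131, 24460 and 26488 in IRF7 cells. The groups were apart, with a log2 change of 0.23 (SE 0.0372, limma adjusted p = 0.00282). The second Col4a1 probe gave -0.09 (SE 0.0349, limma adjusted p = 0.0707), and the mean of both probes gave 0.07 (limma adjusted p = 0.134). Col4a2 (mm7 chr8:11416851-11416910) read 12969, 12181 and 11793 against 13782, 15333 and 16030, a log2 change of 0.09 (SE 0.0350) that did not pass (limma adjusted p = 0.0696). Its second probe gave -0.07, so the probes of both chains straddled 0.

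Col4a4 belongs to the set of chains that replaces the ubiquitous ones in the kidney filter and some other basement membranes. Its probe (mm7 chr1:82661529-82661590) read 2624, 2324 and 2543 in base-vector cells and 3172, 3564 and 3675 in IRF7 cells. All IRF7 arrays were higher, with a log2 change of 0.28 (SE 0.0385, limma adjusted p = 0.00153). Its divergently placed neighbour Col4a3 was above background on base-vector replicate 1 only and was not tested. Median centring in place of the 75th percentile left Col4a4 (0.24, limma adjusted p = 0.0848) and Col4a1 (0.19, limma adjusted p = 0.169) short of the threshold.

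Col4a5 and Col4a6 are neighbours on the X chromosome. Col4a5 (mm7 chrX:136352769-136352828) had scaled levels of -0.86, -1.05 and -0.97 in base-vector cells and -1.20, -1.28 and -1.17 in IRF7 cells. All 3 IRF7 arrays lay below the base-vector arrays, with a log2 change of -0.26 (SE 0.0592, limma adjusted p = 0.0114). Without scaling it was -0.06 (limma adjusted p = 0.674). The 2 tested Col4a6 probes passed in opposite directions. The brightest (mm7 chrX:135831206-135831265) read 301, 211 and 246 against 323, 355 and 367, a log2 change of 0.28 (SE 0.0877, limma adjusted p = 0.0356). The other (mm7 chrX:135829764-135829823) read 86.4, 79.8 and 79.1 against 59.6, 62.2 and 64.4, a log2 change of -0.59 (SE 0.0331, limma adjusted p = 5.21e-05). On slide 1 alone the brightest probe gave 0.11 (limma adjusted p = 0.0979), and its call was lost without base-vector replicate 3 or without any 1 of the IRF7 arrays.

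Of the 5 tested fibrillar chains, 2 were higher, 1 was lower and 2 did not pass, and all 5 stayed under 2-fold. Col5a1 encodes a chain of type V collagen, which nucleates fibrils and limits their width. Its brightest probe (mm7 chr2:28044683-28044742) had scaled levels of 3.1, 3.13 and 3.15 in base-vector cells and 2.80, 2.83 and 2.86 in IRF7 cells. The replicates lay close together and the groups were apart, with a log2 change of -0.30 (SE 0.0303, limma adjusted p = 0.000427). Of 62 tested genes within 2 Mb of Col5a1, 37 were lower and 3 higher, with a median of -0.20 (29.0% of all genes were lower and 32.1% higher). Other windows leaned to 1 side as well, such as that of Col24a1 (16 higher and 5 lower of 23). The helix probe of Col5a1 shown above read 345, 295 and 213 against 294, 372 and 296, a log2 change of -0.00 (SE 0.180, limma adjusted p = 0.991). Without scaling the brightest probe gave -0.10 (limma adjusted p = 0.399).

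Col24a1, a minor fibrillar chain of bone and cornea, gave opposite readings at its probes. The brightest probe (mm7 chr3:145448673-145448732) read 216, 179 and 177 in base-vector cells and 319, 351 and 381 in IRF7 cells, a 1.60-fold higher level (log2 change 0.68, SE 0.0487, limma adjusted p = 0.000108). The other probe lies 238203 bases upstream (mm7 chr3:145210470-145210529) and read 240, 180 and 225 against 93.4, 88.3 and 84.8. There the IRF7 cells read 2.76-fold lower (a change of -1.46, SE 0.111, limma adjusted p = 0.000154). Both probes were above background on all 6 arrays, and both separated the groups without overlap. The mean of both gave -0.39 (limma adjusted p = 0.00204), so the direction for this gene depends on the probe.

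Col11a2, a cartilage fibril chain, rose from signals near background. Its brightest probe (mm7 chr17:32145178-32145237) read 51.1, 50 and 44.2, above background on 2 of 3 base-vector arrays, and 74.6, 78.1 and 93.3 in IRF7 cells. The log2 change was 0.56 (SE 0.0756, limma adjusted p = 0.00138), and 0.18 with normexp. Its helix probe gave 0.23 (SE 0.129, limma adjusted p = 0.180). Col1a2 read 65.8, 41.7 and 36.9 against 62.8, 75.4 and 60.9; the groups overlapped and the log2 change of 0.31 (SE 0.198) did not pass (limma adjusted p = 0.229). The brightest probe of Col2a1, the main cartilage collagen (mm7 chr15:97979257-97979316), read 166, 122 and 129 against 142, 193 and 158, a log2 change of 0.05 (SE 0.123) that did not pass (limma adjusted p = 0.771). Another Col2a1 probe that overlaps this one (mm7 chr15:97979237-97979296) read 25.7, 15.8 and 12.5 against 9.28, 14.7 and 10.6, above background on no array.

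The remaining 6 fibrillar chains could not be tested. Col1a1 read 17.7, 16.3 and 17.3 in base-vector cells and 7.60, 7.05 and 9.03 in IRF7 cells, with no array well above background, so the gap between the groups has no fold. The brightest probes of Col5a2, Col5a3 and Col11a1 were above background on no array, that of Col3a1 on base-vector replicate 2 only, and that of Col27a1 likewise on base-vector replicate 2 only.

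The fibril-associated chains held 2 of the chains that rose from background. Col9a3, a chain of the cartilage fibril-coating type IX, read 29.9, 24.7 and 20.3 in base-vector cells, above background on no array, and 60.5, 81.7 and 85.4 in IRF7 cells, above background on all 3. It was at least 1.99-fold higher in IRF7 cells, where the fold is taken against the lowest signal that counts as well above background on each array (28 to 34.0). Col9a3 entered the test only through the IRF7 arrays. Its limma adjusted p (0.000424) rests on base-vector signals not well above background and does not bear on that bound. Col14a1, which binds fibrils of type I collagen, read 49.9, 29.5 and 30.7, above background on 1 array, and 84.3, 99.3 and 93.9. The groups did not overlap, and the fitted level was 2.26-fold higher (log2 change 1.18, SE 0.168, limma adjusted p = 0.0017). Col14a1 too entered the test only through the IRF7 arrays. Its fold and p-value rest in part on base-vector signals not well above background. Base-vector replicate 1 was the highest of its group for both chains. On slide 1 alone the log2 change was 0.79 for Col14a1 and the fitted change 1.23 for Col9a3, and with normexp they were 0.45 and 0.47.

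Col16a1, a fibril-associated chain, fell slightly. Its scaled levels were 4.60, 4.64 and 4.65 in base-vector cells and 4.46, 4.42 and 4.46 in IRF7 cells, a log2 change of -0.18 (SE 0.0284, limma adjusted p = 0.00234). Without scaling the change was 0.01 (limma adjusted p = 0.906), on slide 1 alone -0.16 (limma adjusted p = 0.0523), and the second probe gave 0.13 (SE 0.154, limma adjusted p = 0.492).

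Col20a1, a little-studied fibril-associated chain, lies 361131 bases from Col9a3. Its probe read 100, 51.5 and 48.3 in base-vector cells and 98.6, 124 and 121 in IRF7 cells. Base-vector replicate 1, the one on the slide of the IRF7 arrays, was level with the lowest IRF7 array, and the other two were far below. The log2 change of 0.66 (SE 0.25) did not pass (limma adjusted p = 0.0655); it was 0.09 on slide 1 alone and 0.94 without base-vector replicate 1 (limma adjusted p = 0.00071). Col9a2, another type IX chain, read 172, 157 and 148 against 174, 163 and 163, a log2 change of -0.13 (SE 0.0766, limma adjusted p = 0.203). Col22a1, a chain of tissue junctions, read 71.7, 58.7 and 63.6 against 71.1, 63.8 and 80.6, a log2 change of -0.05 (SE 0.0847, limma adjusted p = 0.653). Its second probe, above background on the IRF7 arrays only, gave 0.24 (SE 0.0969, limma adjusted p = 0.0787). Col9a1 and Col12a1 were above background on no array, and Col19a1 on 1 array of each group.

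Among the transmembrane collagens, Col17a1 appeared in the IRF7 cells. It encodes the collagen of hemidesmosomes, which anchor epithelial cells to the basement membrane. Its brightest probe (mm7 chr19:47546901-47546960) read 12.3, 8.07 and 8.09 in base-vector cells and 46.4, 59.0 and 56.8 in IRF7 cells. No base-vector array and all 3 IRF7 arrays were above background, so Col17a1 was at least 1.42-fold higher. It entered the test only through the IRF7 arrays. Its limma adjusted p (6.04e-05) rests on base-vector signals below background and does not bear on that bound. A second probe at mm7 chr19:47547213-47547272 read 7.93 to 8.96 and was above background on no array of either group. The brightest probes of Col13a1 and Col23a1 were above background on no array, and that of Col25a1 on 1 IRF7 array.

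The remaining classes changed little. Col7a1, the chain of the anchoring fibrils that tie the epidermis to the dermis, read 5488, 5048 and 4723 against 5659, 6056 and 6040, with a log2 change of 0.02 (SE 0.0447, limma adjusted p = 0.68). Col18a1 is a multiplexin of basement membranes whose end fragment is endostatin. Its scaled levels were 5.46, 5.48 and 5.50 in base-vector cells and 5.38, 5.29 and 5.28 in IRF7 cells, a log2 change of -0.16 (SE 0.0362, limma adjusted p = 0.00983), and a second probe gave -0.24 (SE 0.0343, limma adjusted p = 0.00171). Without scaling the brightest probe gave 0.03 (limma adjusted p = 0.76), and on slide 1 alone -0.15 (limma adjusted p = 0.122). Col15a1, the other multiplexin, was above background on no array.

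Probes of the same chain often differed. In 10 chains 2 probes were tested, and in 6 of them (60%, against 24.4% of 5593 genes with several tested probes) the changes had opposite signs, most of them small. In 2 chains, Col24a1 and Col4a6, the probes passed in opposite directions (20%, against 2.86% of those genes). Col8a1 and Col18a1 were the chains whose probes passed in the same direction. In Col1a2, Col2a1, Col4a4, Col4a6, Col14a1 and Col17a1 at least 1 further probe was above background on no array. Which transcript forms each probe detects was not tested.

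**Figure D3:**
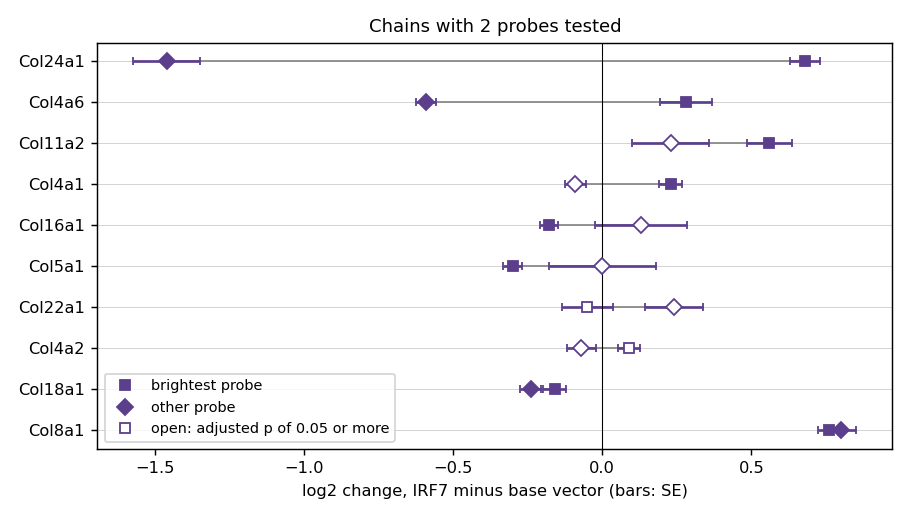
Log2 change (IRF7 minus base vector, horizontal axis; bars, SE of the limma fit) of the brightest probe (squares) and the other tested probe (diamonds) of 10 chains; open symbols did not pass. The Col24a1 probes lie at 0.68 and -1.46 and the Col4a6 probes at 0.28 and -0.59, while those of Col8a1 lie together at 0.76 and 0.80.

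Of 32 genes that fold, secrete, trim and crosslink collagen, 23 were tested: 11 were higher, 8 lower and 4 did not pass (82.6% called, against 61.2% of all genes), none by 2-fold or more. In the folding group (17 tested, 8 higher, 7 lower, median 0.03) the collagen-specific chaperone and the prolyl 3-hydroxylases P3h1 and P3h3 fell while several partners rose. Serpinh1, which encodes the chaperone HSP47, read 37532, 32769 and 36239 in base-vector cells and 23121, 23692 and 25361 in IRF7 cells, a 1.69-fold lower level (log2 change -0.76, SE 0.0412, limma adjusted p = 3.94e-05). P3h1 changed by -0.66 (SE 0.0308, limma adjusted p = 2.38e-05) and P3h3 by -0.79 (SE 0.0516, limma adjusted p = 7.63e-05). The prolyl 3-hydroxylase P3h2 was instead higher, by at least 1.52-fold, and was above background only on the 3 IRF7 arrays. Ppib, the cyclophilin that works in one complex with P3h1, rose from 72363, 62175 and 70373 to 120184, 121159 and 133304 (0.67, SE 0.0497, limma adjusted p = 0.00012), and Crtap, the other member of that complex, by 0.19 (SE 0.0359, limma adjusted p = 0.0052). The 3 subunits of this complex therefore did not move in 1 direction, though with median centring the Crtap value was 0.16 (limma adjusted p = 0.247).

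In the processing and crosslinking group 6 of 12 genes were tested, with 3 higher, 1 lower and a median of 0.06 (66.7% called, against 61.2% of all genes). Pcolce2, an enhancer of propeptide removal, rose by 0.44 (SE 0.0410, limma adjusted p = 0.000292) and the crosslinking oxidase Loxl4 by 0.49 (SE 0.0778, limma adjusted p = 0.00268). Bmp1, the protease that removes the C-terminal propeptide, changed by -0.09 (SE 0.0262, limma adjusted p = 0.0239) and its enhancer Pcolce by 0.10 (SE 0.0292, limma adjusted p = 0.0252). Without scaling Bmp1 gave 0.10 (limma adjusted p = 0.368). Lox, Loxl1, Adamts2 and Tll2 were above background on no array.

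Of 15 genes for collagen receptors, uptake and binding partners, 10 were tested, with 5 higher, 4 lower and a median of 0.06 (90.0% called, against 61.2% of all genes). Both discoidin domain receptors, which are tyrosine kinases that bind collagen, fell: Ddr1 by 0.54 on the log2 scale (SE 0.0333, limma adjusted p = 6.04e-05) and Ddr2 by 0.23 (SE 0.0324, limma adjusted p = 0.00171), though Ddr2 gave -0.03 without scaling (limma adjusted p = 0.809). Sparc, a secreted collagen-binding protein, fell by 0.56 (SE 0.0364, limma adjusted p = 7.82e-05). Tnxb, which encodes the fibril-spacing tenascin-X, rose 2.39-fold (1.26, SE 0.0782, limma adjusted p = 6.37e-05; its other probe gave 0.28). The cartilage matrix gene Comp (at least 1.33-fold) and Itga2, the alpha chain of a collagen-binding integrin (at least 1.65-fold), rose from below background.

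Of 24 regulators of collagen genes, mostly of the transforming growth factor beta pathway, 23 were tested, with 5 higher, 12 lower, 6 that did not pass and a median of -0.16 (73.9% called, against 61.2% of all genes, of which 32.1% were higher and 29.0% lower). Tgfb2, a ligand of the pathway, read 835, 733 and 786 in base-vector cells and 379, 375 and 407 in IRF7 cells, a 2.32-fold lower level (log2 change -1.22, SE 0.0420, limma adjusted p = 8.58e-06). The other ligands Tgfb1 and Tgfb3 changed by -0.16 and -0.29. Of the receptors, Tgfbr2 changed by -0.38, while Tgfbr1 (-0.02) and Tgfbr3 (0.10) did not pass. Among the signal transducers, Smad3 (-0.53, SE 0.0365, limma adjusted p = 9.63e-05) and Smad4 (-0.24) were lower and Smad2 (0.17, SE 0.0292, limma adjusted p = 0.00404) was higher. Smad4 gave -0.05 without scaling (limma adjusted p = 0.703), and Smad2 gave 0.13 with median centring (limma adjusted p = 0.332). Smad3 passed under both of these settings. Ccn2, a known target gene of the pathway, rose by 1.15 (SE 0.0577, limma adjusted p = 3.05e-05). The inhibitor Smad7, also a target, rose by 0.77 (SE 0.0510, limma adjusted p = 7.95e-05). Skil was lower (-0.16, SE 0.0284, limma adjusted p = 0.00385), with 0.03 without scaling. Fn1 of the binding group was lower too (-0.42, SE 0.104, limma adjusted p = 0.0155), with other probes at -0.51 and 0.20. Rfx5, a factor that represses type I collagen genes, changed by -0.79 (SE 0.0397, limma adjusted p = 3.03e-05). Without scaling Tgfb2 (-1.02) and Smad3 (-0.33) still passed, while Tgfb1 (0.04), Tgfb3 (-0.09) and Tgfbr2 (-0.19) did not, and the regulators split into 6 higher and 3 lower, and the folding, processing and crosslinking genes into 11 higher and 3 lower.

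**Figure D4:**
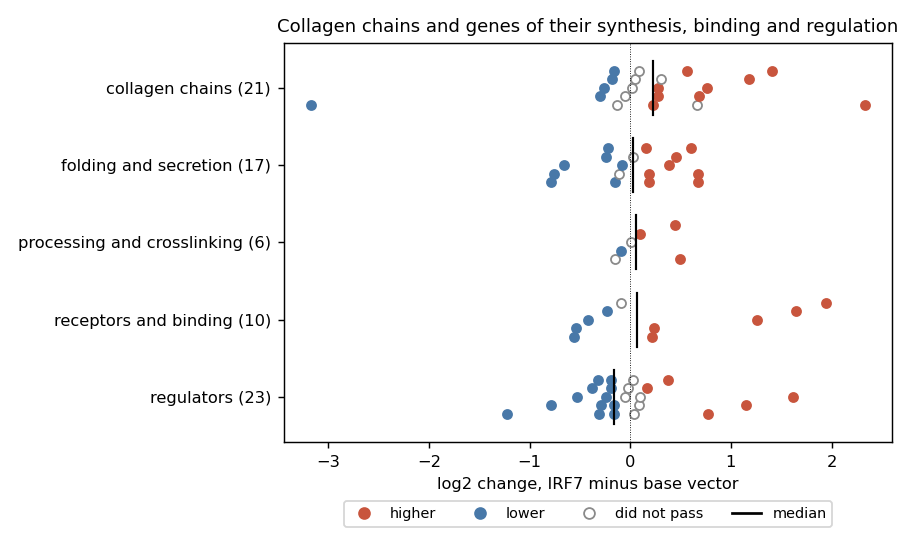
Log2 change (horizontal axis, IRF7 minus base vector) of every tested collagen chain and of every tested gene of 4 related groups (vertical axis, number tested in brackets); each point is 1 gene, filled if it passed, and the black bar is the group's median. Col6a1 at -3.17 and Col17a1 at 2.33 (a fitted value, whose bound is a rise of at least 1.42-fold) lie outside the range of the folding and processing genes, which stay between -0.79 and 0.67.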

How the data were processed

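Total RNA of 6 cultures was hybridised to single-colour arrays. Groups and replicate numbers come from the sample titles. The submitters' processing notes name Agilent Feature Extraction 9.5.3.1 as the scan reader. Per the file headers, the deposited intensity of each spot is background-subtracted and linear, with no scaling between arrays; the authors' deposited value table was identical to it (largest difference 0.0, column medians 56.5 to 79.0). Control spots (1639) and 111 to 121 outlier spots per array were left out, and 1 spot was saturated, on no collagen probe. Coordinates are those of the files (mm7); exon and UTR annotation was not used here.

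From the deposited intensity, log2 values minus each array's 75th percentile were computed. Spots of a probe were averaged, probes well above background on at least 3 arrays were kept, and the brightest probe stood for each gene (15414 genes). Groups were compared with lmFit and eBayes of limma 3.58.1 in R 4.3.3 (4 residual and 1.63 prior degrees of freedom) with no block, Benjamini-Hochberg adjustment over all genes and a threshold of 0.05; it was tested on simulated data. Values of second probes, and of probes that the array names otherwise, come from a separate fit of the same kind. That fit covered the 23518 probes kept, and its p-values were adjusted over those probes. Python 3.11.15, pandas 2.3.3 and matplotlib 3.10.9 were used. Where no array of a group was above background, the fold is a bound against the higher of the probe's signal and the lowest signal well above background. Gene names were matched to RefSeq by accession (22892 probes), symbol (6638) or older symbol (3107), and 8455 kept the files' name.

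Every chain was accounted for, those above background on all arrays of a group with their values; of the other lists the 4 genes with the smallest p were named, and Irf7; 1 gene of this choice is not reported here, though it counts in its list. Crtap, P3h2, Ddr2, Itga2, Fn1, Tgfb1, Tgfb3, Tgfbr1, Tgfbr2, Tgfbr3, Smad2, Smad3, Smad4, Smad7, Skil and the markers were named after their values were seen. The members and lists were chosen with earlier results of these data known. The design text speaks of independent experiments; p-values here reflect only how far cultures of 1 pool per group differed, and 3 arrays per group limit the precision.

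Alternatives were normexp (offset 50), quantile normalization, median centring, no scaling, no or a stricter filter, the mean of probes, trend and robust eBayes, slide as a block (fixed, then random), slide 1 by itself, the replicate number as a block and each array left out.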

Additional observations from a re-analysis of the deposited data

How the results depend on the processing

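Over 18 alternatives, 337 of 373 values of the collagen chains kept their call (higher, lower or not passed). Among values that passed in neither setting, the sign could turn. Of the others, 21 kept their sign but no longer passed, 11 passed only under the alternative and 4 turned in sign. The sign turned for Col16a1 (0.01) and Col18a1 (0.03) without scaling, where neither passed any longer. It also turned for Col4a6 (-0.16) and Col24a1 (-0.39) with the mean of a gene's probes, where both passed. The 14 chains called became 10 with median centring and 17 with no filter, 4 of the latter (Col1a1, Col5a2, Col10a1 and Col28a1) with signals below background. The 4 chains with at least 2-fold change became 1 with normexp and 1 among chains above background on all arrays. The 19 folding, processing and crosslinking genes called became 10 with median centring; the 17 regulators became 11 with median centring and 9 without scaling. Over all genes, the 9429 calls became 6204 with median centring and 14534 with no filter. Leaving out each array in turn gave 13 to 16 collagen chains called, 4 with at least 2-fold change each time, 15 to 17 folding, processing and crosslinking genes, 7 to 9 receptor and uptake genes, 17 regulators and 8309 to 9075 genes. Apart from the alternatives' own construction, the causes were not tested. Same-numbered arrays correlated at 0.04, 0.17 and 0.23 in their deviations from the group means, so they were not treated as pairs, although each array correlated best with its own number. With the replicate number as a block 13 chains were called (Col4a6 was lost), 4 by at least 2-fold, with 19 folding, processing and crosslinking genes, 9 receptor and uptake genes, 17 regulators and 9780 genes. Signals near background limit the size of the changes of Col9a3, Col14a1, Col17a1 and Col11a2.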

Other observations

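Probes that the array names otherwise but that a current gene table assigns to collagen genes were also read. The probe named 1110001D15Rik, an older symbol of Col6a4, whose product can take the place of the alpha3 chain in type VI collagen, read 50.3, 51.3 and 45.7 in base-vector cells and 49.9, 52.0 and 55.4 in IRF7 cells, a log2 change of -0.10 (limma adjusted p = 0.208). The probes named E330026B02Rik (Col6a6) and Emid2 (Col26a1) were above background on no array. A further Col11a1 probe, named C530001D20Rik, read 53.6 on base-vector replicate 3 and was above background on no other array.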
